A study of Mus musculus with 7 samples.

Results

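The immunoglobulin heavy and light chain genes encode the chains of the B-cell receptor and of secreted antibody. They were taken as all rows of the expression table whose symbol begins with Igh, Igk or Igl followed by v, j or c, together with the heavy chain constant genes Ighm, Ighd, Ighe, Igha, Ighg1, Ighg2b, Ighg2c and Ighg3 wherever these were present. The rule found 70 of 21176 genes: 10 constant genes and 60 variable genes, of which 24 were heavy, 33 kappa and 3 lambda. No joining gene, and neither Ighe nor Ighg3, was among the rows analysed here.

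RNA was sequenced from follicular dendritic cells (FDCs), stromal cells of lymphoid follicles that display antigen to B cells. The cells had been sorted from the popliteal nodes of male mice 8 to 12 weeks old that had not been immunized. The 4 wild-type (WT) samples came from mice with an intact Ngfr, the gene of the neurotrophin receptor p75, and the 3 Ngfr KO samples from mice lacking it; the labels give no strain, no allele and no litter. Each sample was made from nodes pooled over several animals, so the spread between samples is the spread between pools, and the p-values below measure only that.

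An antibody has a pair of identical heavy chains and a pair of identical light chains. In each developing B cell a variable gene is joined to a joining segment and transcribed with a constant gene, and a clone of B cells keeps the variable genes it first joined. Naive B cells use the constant genes Ighm and Ighd, activated B cells can switch to an Ighg gene or Igha, and plasma cells, which secrete antibody, hold immunoglobulin transcripts as a large part of their RNA. FDCs are not known to rearrange these genes, and they bind antibody through Fc and complement receptors.

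Sequencing depth was 17244925 to 18873542 reads in WT and 20741770 to 21538400 reads in Ngfr KO, so the 3 Ngfr KO libraries were the deepest of the 7, and depth and genotype cannot be told apart. Expression is given as the deposited TMM value, a read count scaled to its library, without gene length; a value of 1 stood for 230 to 295 reads. All 14 listed FDC markers were present, and their summed value lay between 1855 and 5129 across WT libraries and between 7906 and 10429 across Ngfr KO libraries. Of these 14, limma called 12 higher in Ngfr KO at a Benjamini-Hochberg adjusted p under 0.05 and 0 lower. Over all genes tested it called 34.2% in either direction. Among markers of other cells limma called 6 of 6 endothelial genes lower and 0 of 4 T-cell genes. It called 2 of 4 reticular stroma genes and 1 of 1 myeloid gene tested higher. Of the myeloid list edgeR tested 5 and called 0 higher and 1 lower, against 15.2% of all genes tested.

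The results turn on 1 library, WT replicate 3, and on 2 variable genes in it. These are shown first, each with the variable gene of the table closest to it, since the counting can only tell such genes apart at the bases where they differ. The sequences are the germline variable regions of the reference genome (GENCODE M21 transcripts, GRCm38), not reads, and capitals mark the positions at which the 2 members of a pair differ. Ighv1-9 (chr12:114583569-114583862, minus strand) and Ighv1-77 (chr12:115861867-115862160, minus strand) differed at 30 of 294 bases and were 89.8% identical.
Ighv1-9: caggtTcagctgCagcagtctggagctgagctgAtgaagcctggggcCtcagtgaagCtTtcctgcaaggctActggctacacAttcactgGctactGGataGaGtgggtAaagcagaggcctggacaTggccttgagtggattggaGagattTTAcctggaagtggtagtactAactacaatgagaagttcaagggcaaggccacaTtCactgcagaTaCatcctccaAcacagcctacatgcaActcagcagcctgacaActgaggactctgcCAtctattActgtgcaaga
Ighv1-77: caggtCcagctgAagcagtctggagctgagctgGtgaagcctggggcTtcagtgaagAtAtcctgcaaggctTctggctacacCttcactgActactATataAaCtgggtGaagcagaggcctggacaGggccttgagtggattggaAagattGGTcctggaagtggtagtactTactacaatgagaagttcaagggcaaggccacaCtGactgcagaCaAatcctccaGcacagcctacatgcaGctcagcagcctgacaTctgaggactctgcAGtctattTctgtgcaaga

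Igkv9-124 (chr6:67942074-67942360, minus strand) and Igkv9-120 (chr6:68050170-68050456, plus strand) differed at 12 of 287 bases and were 95.8% identical.
Igkv9-124: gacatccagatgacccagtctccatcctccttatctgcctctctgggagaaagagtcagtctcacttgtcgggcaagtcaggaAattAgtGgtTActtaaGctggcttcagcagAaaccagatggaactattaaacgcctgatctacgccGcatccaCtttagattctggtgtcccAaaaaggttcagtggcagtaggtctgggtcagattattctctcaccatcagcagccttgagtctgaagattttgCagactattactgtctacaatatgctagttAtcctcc
Igkv9-120: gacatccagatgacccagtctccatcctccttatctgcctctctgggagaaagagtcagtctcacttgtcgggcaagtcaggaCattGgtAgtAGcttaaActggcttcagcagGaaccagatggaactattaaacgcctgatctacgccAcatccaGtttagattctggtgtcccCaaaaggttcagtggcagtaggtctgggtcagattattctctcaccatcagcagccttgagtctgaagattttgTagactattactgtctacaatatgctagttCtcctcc

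In WT replicate 3, Ighv1-9 had 5568 reads against 255 for Ighv1-77, and Igkv9-124 had 19966 reads against 0 for Igkv9-120. Over the 6 other libraries Igkv9-124 had at most 18 reads and Ighv1-9 at most 2. The reads of this library were therefore placed on 1 gene of each close pair nearly throughout.

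The summed immunoglobulin value was 31.9, 48.1, 533 and 38.9 in WT replicates 1 to 4 and 43.4, 64.0 and 23.6 in Ngfr KO replicates 1 to 3. WT replicate 3 stood 8.32-fold above the highest other library, and the other 6 libraries lay within 1 range in which WT and Ngfr KO overlapped. As a share of all reads the 70 genes took 0.0476%, 0.0681%, 0.709% and 0.0576% in WT and 0.0576%, 0.0876% and 0.0280% in Ngfr KO. The 95% Wilson interval for WT replicate 3 was 0.705% to 0.713%; these intervals cover counting error only, since amplified reads without molecular identifiers are not independent molecules. In bulk samples fewer cells of a type and less RNA per cell cannot be told apart.

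Over groups, the WT total was 163 ± 247 (SD, n = 4) and the Ngfr KO total 43.7 ± 20.2 (SD, n = 3), giving a log2 ratio of -1.90, and the WT SD exceeded the WT mean. Without WT replicate 3 the WT mean was 39.6 ± 8.11 (SD, n = 3) and the log2 ratio 0.14, with overlapping groups. No test was made of this sum. The lowest total of all 7 libraries and the highest of the 6 without WT replicate 3 were both in Ngfr KO.

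**Figure D1:**
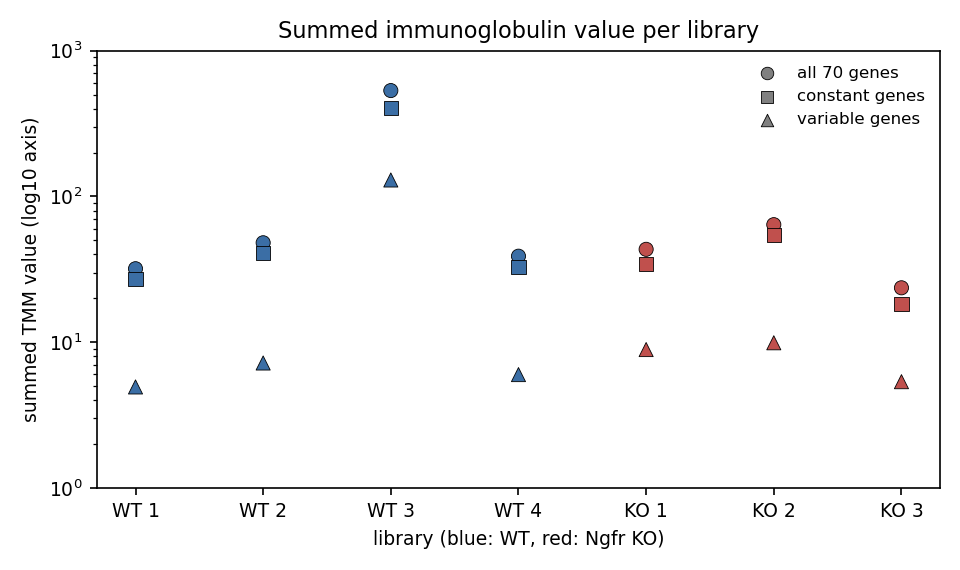
Summed TMM value (log10 axis) of all 70 immunoglobulin genes, of the 10 constant genes and of the 60 variable genes in each library, 1 point per library, WT blue and Ngfr KO red. WT replicate 3 stands at 533 for all genes, and the other 6 libraries lie between 23.6 and 64.0.

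Constant genes summed to 27.0, 40.9, 403 and 32.9 in WT and 34.5, 54.1 and 18.3 in Ngfr KO. Variable genes summed to 4.93, 7.19, 129.8 and 5.99 in WT and 8.89, 9.90 and 5.35 in Ngfr KO. Both kinds were highest in WT replicate 3, and in the other 6 libraries the groups overlapped for each kind. Variable genes held 15.4%, 15.0%, 24.3% and 15.4% of the immunoglobulin reads in WT and 20.5%, 15.5% and 22.7% in Ngfr KO. Among the 6 libraries other than WT replicate 3, the 3 WT shares lay below the 3 Ngfr KO shares, by as little as 15.4% against 15.5%, whose Wilson intervals overlapped (14.7% to 16.2% in WT replicate 1, 15.0% to 16.0% in Ngfr KO replicate 2). The variable sum is a lower bound, because every gene of the table had a read in at least 3 libraries and variable genes seen in fewer were not among the rows.

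In WT replicate 3, 4 genes held 94.3% of the immunoglobulin reads (115688 of 122621; 95% Wilson interval 94.2% to 94.5%): the heavy constant gene Ighg2b, the kappa constant gene Igkc, and the variable genes Igkv9-124 and Ighv1-9. Ighg2b, which encodes the IgG2b heavy chain, had 48802 reads there, 63.0-fold the value of the next library, and Igkc had 41352 reads, 8.39-fold the next. Per kilobase of annotated exon, Ighg2b had 18223 reads and Ighv1-9 had 15863, while Igkc had 77729 and Igkv9-124 had 56561. The constant and the variable gene of each chain were thus at like levels per length in this library, and the kappa pair was above the heavy pair.

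Genes were also ranked by how far each library exceeded the highest other one on the log2(value + 1) scale. In WT replicate 3 the first 3 were Igkv9-124 (6.36), Ighg2b (5.61) and Ighv1-9 (4.64). They were followed by Jchain (3.17), which joins IgA and IgM subunits and is made by plasma cells, then by Igkc (3.01), Iglv1 (2.01) and Igkv6-32 (1.89). Immunoglobulin genes made up 6 of the first 10 genes there, 1 of the first 10 in Ngfr KO replicate 1 and 0 of the first 10 in each of the other 5 libraries. The largest excess of any gene in those 6 libraries was 2.19.

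Jchain had 28, 90, 7319 and 5 reads in WT and 730, 456 and 299 in Ngfr KO. Mzb1, a chaperone of the secretory pathway in marginal zone B and plasma cells, had 47, 191, 762 and 101 reads in WT and 421, 204 and 218 in Ngfr KO. WT replicate 3 was highest for both, followed in both by Ngfr KO replicate 1. The 13 listed plasma cell markers summed to 56.2 in WT replicate 3, 13.8 to 19.4 in the other WT libraries and 28.9 to 32.7 in Ngfr KO, and 4 of the 13 were highest in WT replicate 3. Jchain alone made up 31.8 of the 56.2; without it the sum was 24.4 in WT replicate 3, 13.7 to 19.3 in the other WT libraries and 27.7 to 31.2 in Ngfr KO, so WT replicate 3 was no longer the highest. Xbp1, Creld2 and Txndc5, genes of the secretory pathway that other cells also express, made up 23.0 to 27.9 of the sum in Ngfr KO. Of 5 plasma cell markers tested limma called 2, Xbp1 and Creld2, higher in Ngfr KO and 0 lower, against 34.2% of all genes tested. Of the 13, Irf4, Prdm1 and Tnfrsf17 had 0 reads in WT replicate 3, where each 0 allows up to 3 reads. Derl3, also of the 13, was highest there among the WT libraries. The 14 B-cell markers summed to 27.5 in WT replicate 3, against 24.0 to 36.0 over all WT libraries. The part of plasma cells in this library's immunoglobulin was not tested.

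Ighm, the constant gene of IgM, had 1155, 1428, 500 and 1182 reads in WT and 1030, 2891 and 564 in Ngfr KO (values 4.49, 5.34, 2.17 and 4.51 against 3.74, 9.81 and 2.26). Ighd, the constant gene of IgD on naive B cells, had 919, 1576, 774 and 1590 reads in WT and 644, 2393 and 206 in Ngfr KO (values 3.58, 5.90, 3.36 and 6.06 against 2.34, 8.12 and 0.825). For both genes the groups overlapped, and Ngfr KO replicate 2 was the highest library. WT replicate 3, highest for the IgG2b gene, was the lowest of all 7 for Ighm.

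The signalling partners of the B-cell receptor followed a like order in Ngfr KO: Cd79a values were 5.91, 10.01 and 3.32 and Cd79b values 6.02, 9.17 and 1.83. In WT, Cd79a values were 3.48, 6.45, 4.81 and 6.07 and Cd79b values 4.17, 5.86, 4.17 and 2.88. Ngfr KO replicate 2 was thus highest and Ngfr KO replicate 3 lowest for Cd79a, Cd79b and Ighd alike. The 14 B-cell markers summed to between 24.0 and 36.0 in WT, and to between 31.9 and 56.2 in Ngfr KO. Of 9 tested, limma called 2 higher, Ms4a1 and Cd72, surface proteins of B cells, and 0 lower, against 34.2% of all genes tested. The part of B-cell content in the spread of Ighm and Ighd was not tested.

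Ighg2b had 3, 4, 48802 and 85 reads in WT and 928, 583 and 312 in Ngfr KO (values 0.0117, 0.0150, 212 and 0.324 against 3.37, 1.98 and 1.25). Without WT replicate 3, each Ngfr KO library was above each WT library. Ighg1, the IgG1 gene, had 0, 61, 0 and 4 reads in WT and 94, 19 and 67 in Ngfr KO, with overlapping groups. Ighg2c, the IgG2c gene, had 1, 0, 0 and 0 reads in WT and 241, 133 and 0 in Ngfr KO, so it was at 0 in 1 Ngfr KO library and at no more than 1 read in any WT library. Igha, the IgA gene, had at most 2 reads in any library, below the 3 reads that a count of 0 allows, and no difference was detectable at this depth.

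The 3 Ighg genes together had 4, 65, 48802 and 89 reads in WT and 1263, 735 and 379 in Ngfr KO. Per kilobase they made up 0.171%, 1.55%, 96.4% and 2.22% of the heavy constant reads in WT and 38.9%, 10.4% and 25.9% in Ngfr KO. WT replicate 3 was therefore the highest library for IgG and the other 3 WT libraries were the lowest. Without WT replicate 3, the summed IgG value averaged 0.199 ± 0.166 over the WT libraries (SD, n = 3), and the Ngfr KO mean of 2.86 ± 1.57 (SD, n = 3) was 14.4-fold higher. With it the WT mean was 53.2 ± 106 (SD, n = 4) and the groups overlapped.

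The same shares differed in which Ighg gene led. In Ngfr KO replicate 1, Ighg2b made up 23.9%, Ighg2c 12.5% and Ighg1 2.50% of the heavy constant reads per kilobase. In Ngfr KO replicate 3, Ighg2b made up 21.2% and Ighg1 4.70%, with no Ighg2c read. The small IgG share of WT replicate 2 was mostly Ighg1, at 1.46%, whereas that of WT replicate 4 was mostly Ighg2b, at 2.12%. Ighg2b led in each library but WT replicate 2, though in WT replicate 1 on only 3 reads.

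**Figure D2:**
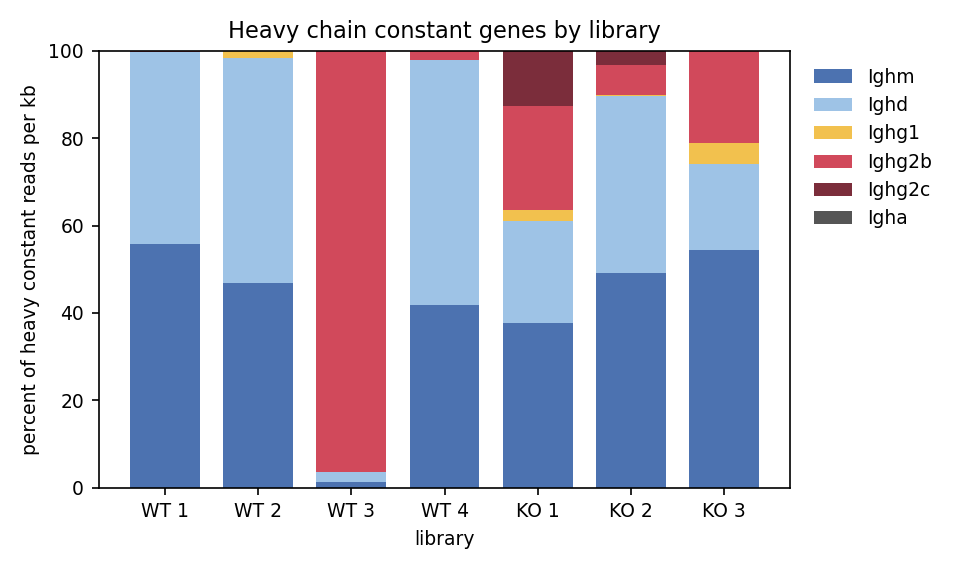
Percent of heavy chain constant reads per kilobase taken by each heavy constant gene, 1 stacked bar per library. Ighm and Ighd fill nearly the whole bar of WT replicates 1, 2 and 4, Ighg2b takes 96.4% of WT replicate 3, and the 3 Ighg genes together take 10.4% to 38.9% in Ngfr KO.

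Ighd made up 44.0%, 51.4%, 2.16% and 55.9% of the heavy constant reads per kilobase in WT and 23.4%, 40.4% and 19.7% in Ngfr KO. Ighm made up 55.7%, 47.0%, 1.40% and 41.9% in WT and 37.7%, 49.2% and 54.4% in Ngfr KO. Without WT replicate 3 the Ighd share was lower in each Ngfr KO library than in each WT library, while the Ighm shares overlapped. Reads of Ighm per read of Ighd, both per kilobase, were 1.27, 0.913, 0.651 and 0.749 in WT and 1.61, 1.22 and 2.76 in Ngfr KO, and the groups overlapped through WT replicate 1 and Ngfr KO replicate 2.

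Igkc, the single kappa constant gene, had values of 9.52, 15.4, 179.7 and 12.4 in WT and 14.6, 21.4 and 8.83 in Ngfr KO. It overlaps the lincRNA gene Gm30211 on the same strand, so reads could be split between them. WT replicate 3 was the highest, and the other 6 libraries overlapped between the groups. The lambda constant genes were not high in WT replicate 3. Iglc2 had values of 4.50, 7.16, 2.15 and 5.66 in WT and 3.31, 5.21 and 1.92 in Ngfr KO, and Iglc3 had 3.72, 5.06, 2.73 and 3.25 in WT and 2.84, 4.23 and 2.47 in Ngfr KO. WT replicate 3 was the lowest WT library for both.

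Iglc1 had values of 1.15, 1.79, 0.943 and 0.736 in WT and 3.03, 2.84 and 0.424 in Ngfr KO. The 2 highest and the lowest of the 7 libraries were Ngfr KO, so the groups overlapped. Iglc1, Iglc3 and Iglv1 overlap the antisense gene 2010309G21Rik and Iglc2 overlaps the joining segment Iglj2; the use of strand in the counting is not given in the sources used here, so reads of such partners cannot be told apart.

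The share of kappa among light chain constant reads per kilobase was 49.7%, 51.9%, 96.7% and 56.3% in WT and 59.997%, 62.5% and 63.5% in Ngfr KO. WT replicate 3 was the highest, and each Ngfr KO library was above each of the other 3 WT libraries. The WT mean was 63.6% ± 22.2 (SD, n = 4) and the Ngfr KO mean 62.0% ± 1.8 (SD, n = 3), which gives a difference of -1.61 percentage points. Without WT replicate 3 the WT mean was 52.6% ± 3.3 (SD, n = 3) and the difference 9.40 percentage points. The direction of this difference was thus set by 1 library. Among light chain variable reads per kilobase, the kappa share was 80.4%, 78.8%, 90.5% and 98.4% in WT and 66.5%, 77.8% and 92.8% in Ngfr KO, with overlapping groups in either case.

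Of the 60 variable genes, 28 had reads in exactly 3 of the 7 libraries (46.7%), against 7.23% of all genes in the table. Only Iglv1 and Iglv3 had reads in all 7 libraries (3.33% of variable genes, against 71.0% of all genes). In 42 of the 60, more than 50% of the summed value came from a single library, and 28 had fewer than 100 reads in all. Each variable gene is thus mostly a value of a few libraries, and no mean over a group describes it well. The library in which a variable gene was highest was Ngfr KO replicate 2 for 20 genes, WT replicate 2 for 10, and one of the other 5 for 4 to 8 genes each.

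Variable genes with at least 1 read numbered 49, 51, 16 and 25 in WT and 39, 42 and 17 in Ngfr KO. WT replicate 3, with the most variable reads (29854), had the fewest variable genes, and 44 of the 60 were at 0 there, where each 0 allows up to 3 reads. Thinned to 1266 variable reads per library, the expected numbers were 49.0, 47.6, 10.6 and 24.5 in WT and 35.5, 38.3 and 17.0 in Ngfr KO. The thinned WT mean of 32.9 ± 18.6 (SD, n = 4) and the Ngfr KO mean of 30.2 ± 11.6 (SD, n = 3) differed by less than the spread within either group. The effective number of variable genes, the number of equally used genes that would give the same spread of reads, was 18.4, 19.8, 2.04 and 5.78 in WT and 9.80, 13.0 and 6.05 in Ngfr KO. In these measures WT replicate 4 and Ngfr KO replicate 3 stood next to WT replicate 3, although their immunoglobulin totals were among the low ones.

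The most abundant variable gene was Iglv1 in WT replicates 1 and 2 and in Ngfr KO replicates 1 and 2, with 9.16%, 13.6%, 19.6% and 18.1% of the variable reads. In WT replicate 3 it was Igkv9-124 with 66.9%, in WT replicate 4 Igkv1-117 with 32.4% (95% Wilson interval 30.2% to 34.8%), and in Ngfr KO replicate 3 Igkv6-17 with 29.1% (26.7% to 31.6%). The leading gene thus differed between the 3 libraries with the fewest variable genes. Within WT replicate 3, the 5 most abundant variable genes held 97.7% of the variable reads. Igkv9-124 there held 93.0% of the kappa variable reads and Ighv1-9 held 94.0% of the heavy variable reads.

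**Figure D3:**
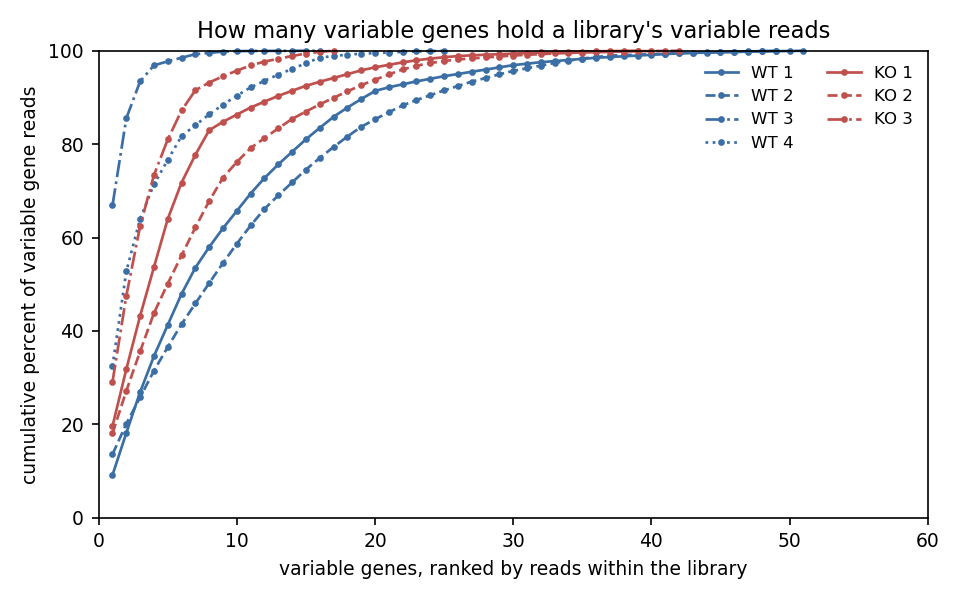
Cumulative percent of a library's variable gene reads against the number of variable genes, ranked by reads within that library; 1 line per library, WT blue and Ngfr KO red. The first gene holds 66.9% in WT replicate 3 and 9.16% in WT replicate 1, with the other 5 libraries between them.

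Heavy variable genes were thinly covered outside WT replicate 3, with 75, 213 and 212 reads in WT replicates 1, 2 and 4 and 188, 486 and 94 in Ngfr KO, against 5923 in WT replicate 3. The leading heavy variable gene was Ighv1-69, Ighv5-17, Ighv1-9 and Ighv3-6 in WT and Ighv1-72, Ighv1-19 and Ighv1-19 in Ngfr KO. Ighv1-19 was the only gene that led in more than 1 library; in Ngfr KO replicate 3 it held 58 of 94 heavy variable reads (61.7%, 95% Wilson interval 51.6% to 70.9%). Its reads were 3, 0, 0 and 28 in WT and 0, 98 and 58 in Ngfr KO. Ighv1-77, the heavy variable gene with the second highest mean, had 255 reads in WT replicate 3 and at most 1 read elsewhere.

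Among kappa variable genes, Igkv6-32 had 51, 1, 1023 and 0 reads in WT and 129, 0 and 0 in Ngfr KO. Igkv10-96 had 114, 126, 234 and 319 reads in WT and 0, 165 and 102 in Ngfr KO, and was at 0 in Ngfr KO replicate 1 alone. The leading kappa gene was Igkv10-96 in WT replicates 1 and 2, at 12.0% and 9.44% of kappa variable reads. It was Igkv4-72 in Ngfr KO replicate 1, at 20.0%, and Igkv6-15 in Ngfr KO replicate 2, at 14.2%. No kappa gene led in both a WT and an Ngfr KO library.

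Each lambda variable gene was detected in more than 3 libraries. Iglv1 had 116, 261, 2363 and 21 reads in WT and 481, 528 and 8 in Ngfr KO. Iglv2 had 42, 15, 28 and 0 reads in WT and 256, 0 and 0 in Ngfr KO, and Iglv3 had 84, 98, 81 and 2 reads in WT and 30, 41 and 83 in Ngfr KO. Iglv1 had the most reads of the 3 in 6 of the 7 libraries, and in Ngfr KO replicate 3 Iglv3 had more.

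Close copies limit how far reads can be assigned to single variable genes. For 59 of the 60 variable genes the last 280 bases of the annotated coding sequence were compared with genes of the same locus. These came from 216 annotated variable genes, pseudogenes left out, and a closer sequence outside that set would not be seen. Of the 59, 38 had a neighbour at least 95% identical, and the median best identity was 95.7%. Iglv1 and Iglv2 were 97.5% identical, so their split is uncertain. Igkv9-124 was 95.7% identical to its closest gene over that window, and Ighv1-9 was 90.0% identical to its closest. Reads of somatically mutated genes can be placed on a neighbour, which was not tested.

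Constant reads per variable read, both per kilobase, were compared for each chain. The heavy ratio was 5.38, 2.87, 1.13 and 2.55 in WT and 2.95, 2.42 and 2.27 in Ngfr KO, and the kappa ratio 1.78, 2.16, 1.28 and 1.73 in WT and 1.90, 2.33 and 1.35 in Ngfr KO. Both stayed above 1 in each library and were lowest in WT replicate 3. The lambda ratio was 7.37, 7.42, 0.422 and 80.3 in WT and 2.52, 4.88 and 9.999 in Ngfr KO, a far wider range. WT replicate 4 had 2528 lambda constant reads but 23 lambda variable reads, and WT replicate 3 had 1339 lambda constant reads and 2472 lambda variable reads, of which Iglv1 held 95.6%.

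**Figure D4:**
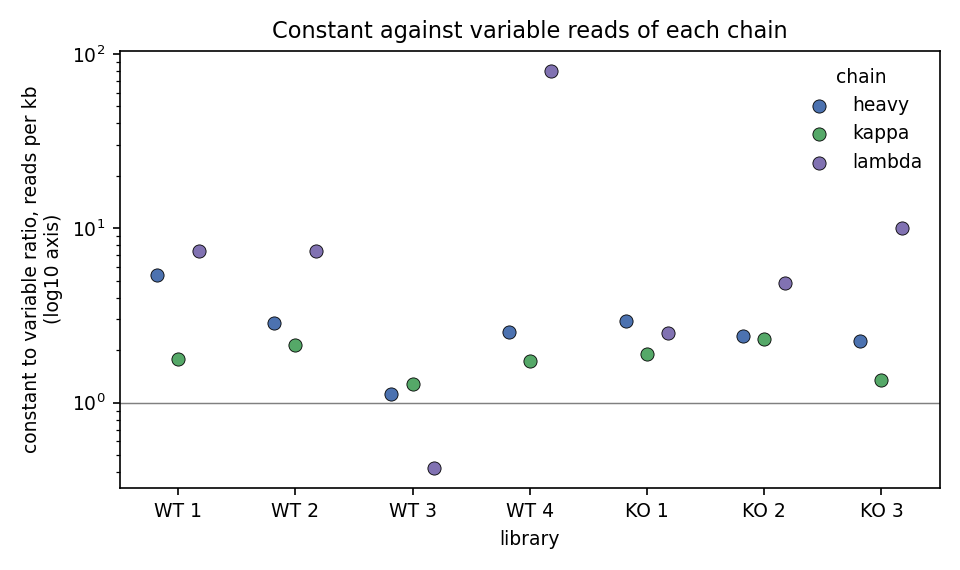
Ratio of constant to variable reads per kilobase (log10 axis) for the heavy, kappa and lambda genes, 1 point per chain and library; the grey line marks a ratio of 1. The lambda ratio runs from 0.422 in WT replicate 3 to 80.3 in WT replicate 4, and the kappa ratio lies between 1.28 and 2.33.

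The spread of the members within groups was set against that of all 8326 genes that reached a value of 1 in 3 or more libraries. The within-group SD of log2(value + 1) had a median of 0.226 over these genes. Of the 70 members 8 met that filter. Ighg2b had the largest SD of all 8326 genes, 2.96, Igkc ranked 5 with 1.52 and Iglv1 ranked 13 with 1.29. Ighd had an SD of 0.796, Ighm 0.656, Iglc1 0.581, Iglc2 0.572 and Iglc3 0.302, each above the median.

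The same 8326 genes, filtered with WT replicate 3 included, were then compared without that library. Iglv1 met the filter only through WT replicate 3. Without that library the median SD was 0.209 and the order changed. Ighd was then the widest of the 8 with 0.866, at rank 31, followed by Iglv1 with 0.658, Iglc1 with 0.645 and Ighm with 0.631. Igkc fell to 0.479 and Ighg2b to 0.374. The 8 members remained above the median of all genes, Iglc3 with 0.287 being the lowest.

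Ngfr KO was then compared with WT by limma on log2(value + 1) over the 8326 genes, with Benjamini-Hochberg adjustment over all of them. Of the 8 members tested, 0 were called at an adjusted p under 0.05 and 0 had an unadjusted p under 0.05, whereas 34.2% of all genes tested were called. None of the 8 had groups that did not overlap, against 40.9% of all genes tested. The median log2 change of the 8 was -0.33, against 0.02 for all genes tested; the 62 other members had values too low for this filter. The 8 that passed are not a sample of the 70.

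**Figure D5:**
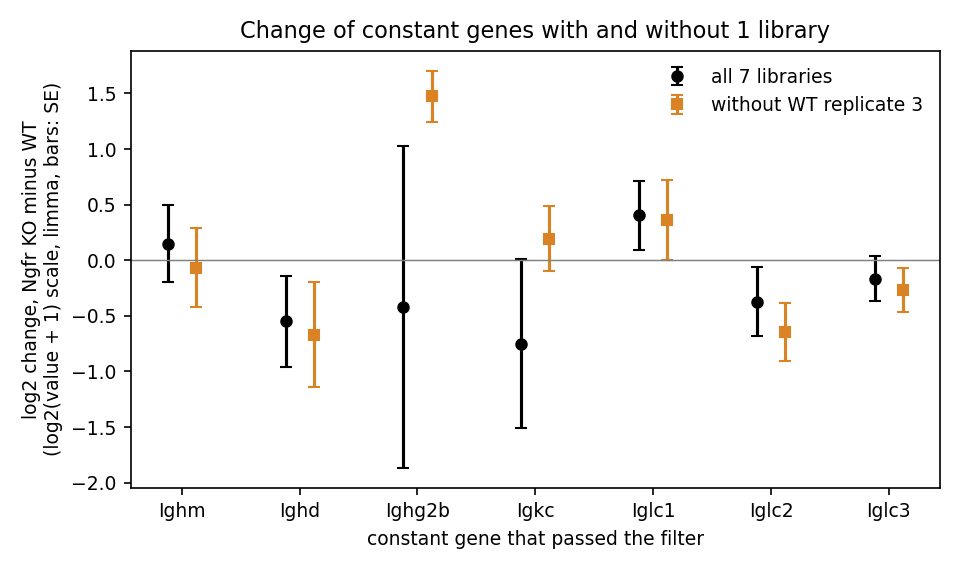
Log2 change of the 7 constant genes that passed the filter, Ngfr KO minus WT on the log2(value + 1) scale by limma, with bars for 1 SE, from all 7 libraries (black circles) and without WT replicate 3 (orange squares). Ighg2b stands at -0.42 with all libraries and at 1.48 without that library, and Igkc at -0.75 and 0.19.

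With all libraries the limma log2 change was -0.42 for Ighg2b (SE 1.45, Benjamini-Hochberg adjusted p = 0.837), -0.75 for Igkc (SE 0.76, adjusted p = 0.457) and 0.15 for Ighm (SE 0.35, adjusted p = 0.758). That of Ighd was -0.55 (SE 0.41, adjusted p = 0.312). Among the lambda genes the limma log2 change was 0.40 for Iglc1 (adjusted p = 0.329), -0.37 for Iglc2 (adjusted p = 0.363), -0.16 for Iglc3 (adjusted p = 0.539) and -0.29 for Iglv1 (adjusted p = 0.745). Iglv1 reached a value of 1 in 3 libraries, WT replicate 3 among them, and without that library it was not tested by limma; its edgeR log2 change turned from -1.21 (SE 1.39, adjusted p = 0.597) to 1.35 (SE 1.13, adjusted p = 0.444). None of these differences exceeded the spread between libraries, and a p that misses the threshold does not show equal levels. The edgeR test itself gives no SE. Each SE printed here with an edgeR log2 change is its absolute value divided by the square root of the test's F statistic.

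Leaving out WT replicate 3, 1 of 7 limma fits that each omit 1 library, called Ighg2b higher in Ngfr KO (log2 change 1.48, SE 0.23, Benjamini-Hochberg adjusted p = 0.00199). It was the only one of 7 members called in that fit, in which 37.0% of all genes tested were called. On whole reads recovered from the values, edgeR's quasi-likelihood test without that library gave Ighg2b a log2 change of 4.30 (SE 1.05, adjusted p = 0.0274), 1 of 29 members called against 16.5% of all genes tested. The omitted library is the one with the highest Ighg2b value, so this call describes the other 6 libraries. The limma fits without Ngfr KO replicate 2 or 3 each called 1 other member. Without Ngfr KO replicate 2, Ighd was lower in Ngfr KO (log2 change -1.18, adjusted p = 0.0150). It was 1 of 7 members tested, and 1614 of all 8064 genes tested were called. Without Ngfr KO replicate 3, Iglc1 was higher (log2 change 0.89, adjusted p = 0.0101). It was 1 of 8 members tested, and 2698 of all 8051 genes tested were called.

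With all 7 libraries edgeR tested 32 members and called 1, against 15.2% of all genes tested, and 2 members had an unadjusted p under 0.05. The called gene, Igkv12-46, had 22, 1, 0 and 0 reads in WT and 20, 247 and 200 in Ngfr KO, and WT replicate 1 lay within the Ngfr KO range. Its edgeR log2 change was 4.72 (SE 1.38, Benjamini-Hochberg adjusted p = 0.0443), and without WT replicate 3 it was 4.32 (adjusted p = 0.0626). In the same edgeR test of all libraries Ighg2b had a log2 change of -4.52 (SE 2.52, adjusted p = 0.253) and Ighg1 one of 1.92 (SE 1.49, adjusted p = 0.420).

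DESeq2 on the same reads called 3 of the 70 members and gave no adjusted p for 29, against 22.5% of the genes with an adjusted p called. It called Ighg2c higher in Ngfr KO (adjusted p = 0.0181), on the 241 and 133 reads of 2 libraries. It called Ighv3-6, with 2, 20, 0 and 80 reads in WT and 0 in each Ngfr KO library, lower (adjusted p = 0.00911). Igkv8-27 was called lower by DESeq2 (adjusted p = 0.0407), with 71, 75, 226 and 19 reads in WT and 31, 17 and 0 in Ngfr KO. The 3 genes called by DESeq2 and the 1 called by edgeR were different genes. In limma, edgeR and DESeq2 alike, the share of members called stayed below that of all genes tested.

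The genes that act with immunoglobulin were taken from lists. Of 13 partners and early signalling genes of the B-cell receptor, limma tested 6 and called 3 higher and 0 lower in Ngfr KO, with a median log2 change of 0.43; over all genes tested 34.2% were called and the median was 0.02. Blnk, an adaptor of B-cell receptor signalling, had values of 2.44, 7.56, 7.33 and 6.25 in WT and 25.4, 28.2 and 17.8 in Ngfr KO, without overlap (limma log2 change 1.91, SE 0.29, adjusted p = 0.000960). Cd79a and Cd79b, which carry the receptor's signal, had limma log2 changes of 0.18 and 0.18 (adjusted p = 0.629 and 0.699). Of 4 genes of the surrogate light chain and recombination list in the table, limma tested 0 and edgeR tested 2 and called 0.

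The 8 germinal centre B-cell markers summed to between 4.72 and 11.9 in WT, against 39.8 to 44.6 across Ngfr KO libraries. limma tested 2 of them and called both higher, with 0 lower, against 34.2% of all genes tested. edgeR tested 7 and called 4 higher and 0 lower, against 15.2% of all genes tested, with a median log2 change of 3.20. For 6 of the 8, each Ngfr KO value was above each WT value. Of all genes that passed the limma filter, which 2 of the 8 did, 40.9% had groups without overlap in either direction. Fas, a death receptor that germinal centre B cells carry, made up most of the summed value, with WT values from 3.48 to 9.86 and Ngfr KO values from 34.3 to 39.1. The part of germinal centre B cells in the IgG values of Ngfr KO was not tested.

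Of 13 transcription factors that act at immunoglobulin loci, edgeR tested 13 and called 1 higher and 1 lower, against 15.2% of all genes tested. Their median log2 change was 0.26, against -0.02 over all genes tested. Pou2af1, a B-cell coactivator of octamer-binding factors, had 35, 63, 48 and 58 reads in WT and 132, 163 and 135 in Ngfr KO (edgeR log2 change 1.45, SE 0.42, adjusted p = 0.0434). Tcf4, an E-box factor, was lower in Ngfr KO by limma (log2 change -0.72, adjusted p = 0.0100) and edgeR (log2 change -0.77, adjusted p = 0.0302).

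Of 9 genes of antibody assembly and transport, limma tested 7 and called 4 higher and 0 lower: the chaperone Hspa5, the disulphide isomerases Pdia4 and Pdia6, and Xbp1, a factor of the secretory programme. The median log2 change of the 7 was 0.88, against 0.02 over all genes tested, of which 34.2% were called. Pdia4 rose the most of these, with a WT mean of 4.22 ± 1.73 (SD, n = 4), an Ngfr KO mean of 11.8 ± 2.24 (SD, n = 3) and a limma log2 change of 1.34 (SE 0.25, adjusted p = 0.00218). Jchain showed the same dependence on 1 library as Ighg2b. Its edgeR log2 change was -2.10 with all libraries (SE 1.75, adjusted p = 0.455) and 3.61 without WT replicate 3 (SE 0.79, adjusted p = 0.0195).

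Of 9 Fc receptors in the table, which bind the constant part of antibody, limma tested 6 and called 3 higher and 0 lower in Ngfr KO, against 34.2% of all genes tested, with a median log2 change of 1.27 against 0.02. Fcgr2b, the inhibitory IgG receptor that FDCs carry, had values of 8.51, 22.2, 20.6 and 16.3 in WT and 67.6, 96.8 and 58.8 in Ngfr KO. Its groups did not overlap (limma log2 change 2.12, SE 0.30, Benjamini-Hochberg adjusted p = 0.000617). Fcer2a, the low-affinity IgE receptor, had a limma log2 change of 3.13 (SE 0.39, adjusted p = 0.000357), and Fcamr, a receptor for IgA and IgM, one of 2.91 (SE 0.31, adjusted p = 0.000225). Fcgr2b and Fcer2a are also among the 14 FDC markers, so the calls of these lists are not separate results.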

How the data were processed

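RNA of sorted FDCs was measured in 4 WT and 3 Ngfr KO pooled samples. Per the labels' protocols, cDNA was made with SMART-Seq v4 and libraries with Nextera XT; the submitters' processing notes name bcl2fastq 2.20.0.422 and the build mm10. The aligner, the counter and the annotation are not given in the sources used here. The authors deposited 1 table of TMM signal per gene; 0 of its columns were left unused. In each column 100% of the values were whole multiples (tolerance 0.05) of 1 step, and division by it recovered the reads.

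limma 3.58.1 in R 4.3.3 (trend, no covariates) was run on log2(value + 1) for genes that reached 1 in 3 or more libraries, with edgeR 4.0.16 (quasi-likelihood) and DESeq2 1.42.0 on the recovered reads as alternatives; calls needed a Benjamini-Hochberg adjusted p under 0.05. The other alternatives were the pseudocount, the filter, the scaling, a replicate block and leaving out each library; the edgeR fits without 1 library and the scalings by all reads or by edgeR's own TMM factors were added after the data were seen. The fits were tested on simulated data with the same dispersion for all genes, changes only in well-expressed genes and no outlying library. That test does not cover changes in genes with few reads or with values set by 1 library. Positions and exon lengths came from GENCODE M21 (GRCm38), matched by identifier for all 70 genes.

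The members and gene lists were chosen with earlier results of these data known. Genes named were the constant genes, the 3 variable genes per locus with the highest mean, each library's leading variable gene, called members and genes of the lists; others (Igkv9-120, leading genes within a chain, genes called only without a library) were chosen after their values were seen. Some listed genes are not reported here.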

Additional observations from a re-analysis of the deposited data

Results flagged for a closer look

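For each value in the 4 WT libraries, the gap of the extreme library to its nearest neighbour was divided by the range of the group and set against Dixon's 95% critical value for 4 samples. For independent, normally distributed values chance marks about 5% of groups. That rate cannot be applied here, since the values are skewed and some rest on few reads. Some variable genes were also chosen by a mean that WT replicate 3 itself set. Of 34 values examined 21 were above the critical value, 17 of them because WT replicate 3 was the highest library. Many of these 17 are sums or shares over the same few genes, so the count is a description only.

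Among single genes in WT replicate 3 the ratio was 0.999 for Ighg2b, 0.965 for Igkc, 0.999 for Igkv9-124, 1.0 for Ighv1-9, 0.912 for Iglv1 and 0.955 for Igkv6-32. It was 0.99 for Jchain, 0.83 for Mzb1 and 1.0 for Derl3, an endoplasmic reticulum protein of plasma cells with 73 reads there and 0 in the other WT libraries. Among sums it was 0.968 for the total immunoglobulin value, 0.969 for its percent of all reads, 0.963 for the constant genes, 0.982 for the variable genes and 0.998 for the IgG genes. Among shares it was 0.949 for the variable percent of immunoglobulin reads, 0.86 for the kappa percent of light constant reads and 0.979 for the IgG percent of heavy constant reads.

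Another library stood out in 4 cases. WT replicate 2 was high for Ighg1, at 0.933, with 61 reads. WT replicate 1 was high for Ighg2c, at 1.0, on a single read, and for Igkv12-46, at 0.956, with 22 reads. WT replicate 4 was high for the lambda constant to variable ratio, at 0.912.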

How the results depend on the processing

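The number of members called was 0 by limma, 1 by edgeR and 3 by DESeq2, set against the shares of all genes above. Leaving out each library gave 0 to 1 by limma, where 1614 to 3006 genes were called in all. In edgeR it gave 1 of 27 members without WT replicate 1, against 1449 of 16273 genes. Without WT replicate 3 it gave 1 of 29, against 2738 of 16623 genes. Without Ngfr KO replicate 3 it gave 3 of 48, against 2224 of 17510 genes, and without any other library 0. The total's log2 ratio ran from -2.28 to 0.14 over the fits without 1 library, positive only without WT replicate 3. The kappa difference ran from -6.26 to 9.40 percentage points, likewise positive only without that library. The difference in thinned variable genes was -2.68; it ran from -10.1 to 3.95 with 1 library left out and was 0.083 counting genes with at least 10 reads. Among constant genes, Ighg2b reversed to 1.04 with a pseudocount of 0.1, to 1.48 (limma) and 4.30 (edgeR) without WT replicate 3, and to 4.43 in edgeR with the replicate block (adjusted p = 0.445). Igkc reversed to 0.19 (limma) and 0.36 (edgeR) without WT replicate 3. Ighm became -0.07 without WT replicate 3 and, without Ngfr KO replicate 2, -0.34 (limma) and -0.41 (edgeR). In edgeR, Ighd became 0.046 without Ngfr KO replicate 1 and 0.25 without Ngfr KO replicate 3, and Iglc3 became 0.034 without WT replicate 2 and 0.049 without Ngfr KO replicate 3. With 1 library left out, the limma values ran from -1.10 to 1.48 for Ighg2b, from -1.17 to 0.19 for Igkc and from -0.34 to 0.53 for Ighm. Iglv1, the variable gene tested by limma, no longer passed its filter without WT replicate 3, and in edgeR turned from -1.21 to 1.35. Iglc1 and Iglc2 kept their sign throughout. Beyond what leaving out a library shows, the cause was not tested.

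Same-numbered libraries correlated at 0.298, -0.059 and -0.011 in their deviations over 8326 genes, and libraries of different number at -0.200 to 0.111. The replicate 1 pair was thus the highest of all, and the other same-numbered pairs lay within the range of the rest. Whether replicate numbers pair the samples was not tested. With the replicate block limma called 0 members and 2717 genes in all, and edgeR 0 members and 1731 genes in all. Dividing reads by library totals in place of TMM put the median change of all genes at -0.08 over all genes and -0.09 over genes other than immunoglobulin, against 0.02; the split of called genes, 1526 higher and 1318 lower with the deposited values, became 1040 and 1808, and 1033 and 1818. The move came with the change to totals: TMM factors from edgeR gave a median of 0.10 and 1817 higher and 1084 lower over all genes, and 1816 and 1082 without immunoglobulin. Median ratio scaling gave a median of 0.07. No member was called under any of these scalings. Outside WT replicate 3, heavy variable genes rest on 75 to 486 reads a library in all.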
